A study of Bos taurus with 16 samples.

Results

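Muscle contracts when an electrical signal on its membrane releases calcium from an internal store, and relaxes when the calcium is pumped back. The expression of 10 genes of this cycle was described in round and sirloin muscle of newborn calves: CACNA1S, STAC3, RYR1, JPH1, JPH2, TRDN, CASQ1, SLN, PLN and PVALB. They were chosen by name, as the rows of the deposited tables whose NCBI gene number carries one of these symbols. All 10 were matched, among 34109 genes in all. The study sequenced RNA from the round (hind leg) and sirloin muscles of 8 Hanwoo calves, a Korean beef breed. It asked how overfeeding of the dam alters the muscle of its calf. The paper's discussion gives Gluteus medius and Psoas major as examples of sirloin muscles. The dams of 4 control calves were fed 100% of their nutritional requirement, and those of 4 treated calves 150%, from mid to late pregnancy. By the study's methods the calves were male, were sampled right after birth before taking colostrum, and came from dams held on the same diet before insemination. Each of the 4 groups therefore held 4 libraries, round control, round treated, sirloin control and sirloin treated, and each calf gave a library to both muscles. The round and sirloin libraries of a diet that share a replicate number were taken as 1 calf, which the labels do not state in words. Calves are named here by diet and replicate number, so that control calf 1 gave the libraries round control 1 and sirloin control 1.

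In a skeletal muscle fibre the calcium channel CACNA1S sits in the transverse tubule and senses the change in voltage, with the adaptor STAC3 needed for its function. It is coupled directly to RYR1, the channel through which calcium leaves the sarcoplasmic reticulum. The junctophilins JPH1 and JPH2 hold the tubule and the reticulum together in the triad, TRDN (triadin) links the release channel to its partners inside the reticulum, and CASQ1 (calsequestrin) stores calcium there. SLN (sarcolipin) and PLN (phospholamban) are small membrane proteins that restrain the pump that refills the store, and PVALB (parvalbumin) is a soluble calcium buffer known from the fast fibres of rodents.

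Levels are given as TPM, the deposited normalized values, which scale transcripts for gene length and to the same total in every library and so allow genes to be compared. Library totals ran from 44473011 to 72446933 counts. The 8 genes that define skeletal muscle, such as ACTA1 and CKM, summed to 44113 to 80681 TPM in every library, while the 6 heart genes summed to 65.6 to 563 TPM, highest in round treated 2, with NPPA and NPPB listed at 0 in all. Some libraries stood apart. Sirloin treated 4 held 3777 TPM of 5 adipocyte genes, against at most 15.0 TPM in the other 15 libraries. Round treated 2 had the highest sum over 8 slow fibre genes, 80489 TPM against 15147 to 38753 TPM elsewhere, and the lowest sum over the 9 matched fast fibre genes, 30354 TPM. Round control 2 held 1471 TPM of 5 fibroblast genes, against 237 to 396 TPM in the other round libraries and at most 613 TPM in sirloin muscle. Nothing in the labels puts these libraries in a group of their own, so they stayed in, and results that turn on them are given without them too.

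Among the 10 genes, the calcium store protein CASQ1 had the highest level, 1520.1 ± 373 TPM (SD, n = 16 libraries), followed by SLN at 1063 ± 640.2 TPM. RYR1 came next at 404 ± 109 TPM, ahead of STAC3 at 293 ± 77.6 TPM. PLN (229 ± 154 TPM), TRDN (216 ± 76.5 TPM), JPH1 (209 ± 87.2 TPM) and CACNA1S (202 ± 50.8 TPM) lay close together, and JPH2 was lower at 88.8 ± 31.2 TPM. PVALB was at or near 0 in all but 1 library. The ranges of neighbours in this order overlapped from CASQ1 down to JPH2. Within single libraries some steps were steadier: CACNA1S exceeded JPH2 in 16 of 16 libraries, CASQ1 exceeded SLN in 6 of 8 round and 8 of 8 sirloin libraries, and SLN exceeded RYR1 in 8 of 8 round and 7 of 8 sirloin libraries. The order of the means was the same in both muscles for the first 4 genes, and PLN held the fifth place in round muscle but the eighth in sirloin muscle.

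**Figure D1:**
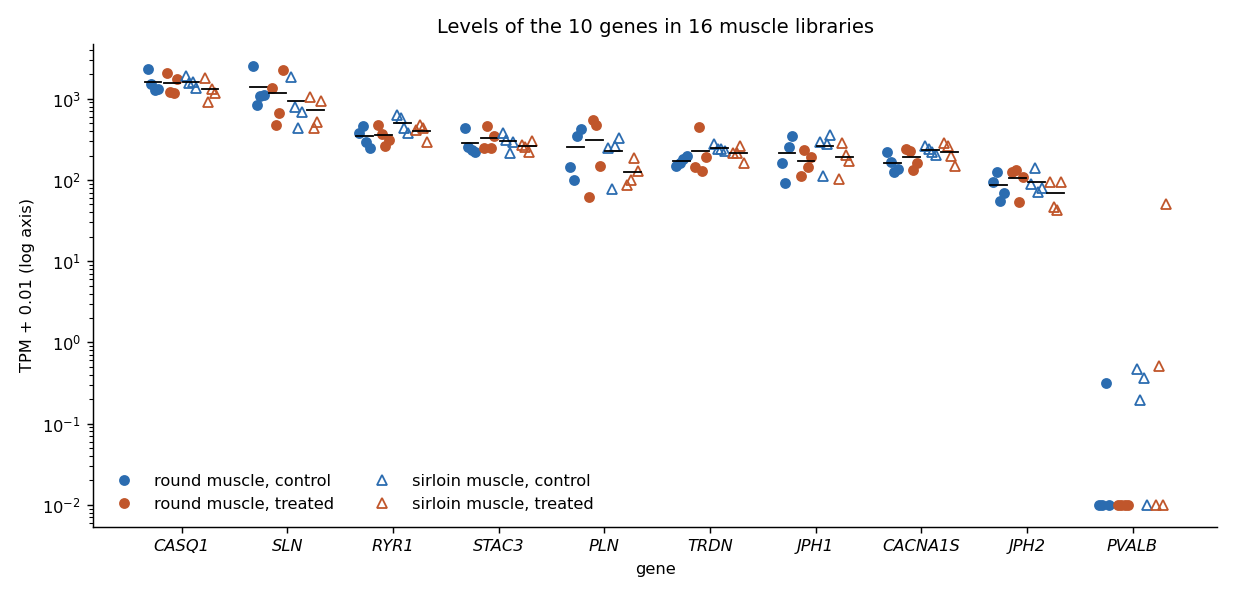
Level of each of the 10 genes in each of the 16 libraries, as TPM + 0.01 on a log axis, with genes in order of their mean level. Filled circles are round and open triangles sirloin libraries, blue for control and orange for treated calves, and bars are group means (none is drawn for PVALB). CASQ1 and SLN lie highest, the next 6 genes have means of 202 to 404 TPM, and PVALB sits at 0 in 10 libraries with a single point at 51.0 TPM.

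The voltage sensor gene CACNA1S (NCBI gene 100337204) lay at 223, 165, 126 and 136 TPM in round control calves 1 to 4 and at 241, 225, 133 and 163 TPM in round treated calves 1 to 4. In sirloin muscle it lay at 263, 241, 220.4 and 205 TPM in the control and 281, 262, 196 and 147 TPM in the treated calves. The sirloin control libraries were the tightest group, all above 200 TPM, and 3 of the 4 round control libraries lay below every sirloin control library. Diets overlapped in both muscles. STAC3 (gene 518234), whose protein the voltage sensor needs to work, lay at 434, 254, 231 and 220.5 TPM in round control and at 251, 468, 245 and 344 TPM in round treated calves. The sirloin values were 383, 307, 212 and 297 TPM for control and 268, 254, 221 and 299 TPM for treated calves. Round control 1 and round treated 2 stood high, and all 4 groups overlapped. Relative to its partner, STAC3 was higher in round muscle: the ratio of STAC3 to CACNA1S TPM in a library was 1.04 to 2.11 in round and 0.95 to 2.04 in sirloin muscle, and it was larger in the round library in 8 of 8 calves. The gap was slight in treated calf 1 (1.04 in round, 0.95 in sirloin muscle) and treated calf 4 (2.11 and 2.04). The other ratios computed between genes of the pathway were larger in the round library in 2 to 6 of 8 calves. For this ratio no test was made, and no share over ratios of other genes was computed.

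The release channel gene RYR1 (gene 100139857) lay at 384, 463, 297 and 250.0 TPM in the round muscle of control calves and at 479.7, 373, 262 and 311 TPM in that of treated calves. In sirloin muscle the control values were 635, 572, 432 and 383 TPM and the treated values 409, 480.3, 441 and 293 TPM. In each control calf the sirloin library was the higher of the pair, whereas among the treated calves round exceeded sirloin in calves 1 and 4. The diets overlapped in both muscles, and within each group the highest library was 1.64 to 1.85 times the lowest. CACNA1S lay at 0.36 to 0.69 of the TPM of RYR1, with a median of 0.51. This ratio spanned 1.94 times over the 16 libraries, against 2.23 times for CACNA1S by itself. The other ryanodine receptor genes were scarce, with RYR3 at 1.80 ± 0.98 TPM in sirloin and 0.81 ± 0.56 TPM in round muscle (SD over the 8 libraries of a muscle) and RYR2, the heart form, at no more than 0.30 TPM in any library.

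Of the genes that build the triad, JPH1 (gene 536811) lay at 164, 90.7, 251 and 352 TPM in round control and at 112, 234, 143 and 193 TPM in round treated calves. Sirloin libraries held 290.2, 113, 275 and 359 TPM (control) and 103, 285, 201 and 171 TPM (treated). Control calf 2 was low and control calf 4 high in both muscles. The SD of JPH1 over the means of the 8 calves, both diets together, on the log2 scale of CPM (counts scaled for the size of the library), was 0.69, against 0.38 for the difference between the muscles of a calf. JPH2 (gene 614651) lay at 95.5, 126, 54.4 and 68.5 TPM in round control and at 125, 131, 54.0 and 109.9 TPM in round treated calves. Its sirloin levels were 89.2, 139, 70.8 and 79.4 TPM for the control diet and 95.0, 46.8, 42.3 and 94.2 TPM for the treated diet. Treated calves 2 and 3 had the 2 lowest sirloin values of all, while treated calf 2 had the highest round value. JPH1 exceeded JPH2 in 13 of 16 libraries, with a ratio from 0.72 to 6.09. The round levels of TRDN (gene 534061) were 149.6, 162, 179.7 and 198 TPM in control and 143, 451, 130.5 and 193 TPM in treated calves. The sirloin levels were 278, 240.2, 244 and 225 TPM in control and 215, 217, 261 and 161 TPM in treated calves. Round treated 2 stood far above the rest. In TPM the sirloin library was the higher one in all 4 control calves, and among the treated calves in calves 1 and 3.

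CASQ1 (gene 508394), the calcium buffer of the store, lay at 2295, 1516, 1299 and 1309 TPM in round control and at 2063, 1221, 1167 and 1759 TPM in round treated calves. In sirloin muscle it lay at 1921, 1579, 1599 and 1352 TPM in control and 1824, 899, 1334 and 1183 TPM in treated calves. Control calf 1 and treated calf 1 were the highest of their diet in both muscles, and sirloin treated 2 was the lowest library of the 16. Of the 4 treated sirloin libraries, 3 lay below every control, but the remaining one lay above 3 of the 4 controls, so the diets overlapped. CASQ1 outweighed its cardiac and slow muscle relative CASQ2 by 21.6 to 115 times in TPM, with the lowest ratio in round treated 2, the library rich in slow fibre genes.

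The pump regulators were the most variable of the genes that every library expressed. SLN (gene 100296455) lay at 2536, 838, 1086 and 1097 TPM in round control and at 1350.0, 477, 674 and 2248 TPM in round treated calves. In sirloin muscle it lay at 1850.0, 788, 436 and 696 TPM in control and 1049, 430.4, 512 and 932 TPM in treated calves. In each of the 8 calves the round library was the higher one, although the gap was slight in control calf 2. Control calf 1 was the highest in both muscles. Levels of PLN (gene 100125240) were 143, 101, 344 and 427 TPM in round control and 61.7, 543, 477 and 147 TPM in round treated calves. Sirloin values were 247, 78.1, 264 and 330.3 TPM under the control diet and 86.3, 101, 184 and 127 TPM under the treated diet. Treated calves 2 and 3 were high in round but not in sirloin muscle, and treated calf 1 was low in both. The 4 treated sirloin libraries were all below the median of the sirloin controls, but above the lowest control. Over the 16 libraries SLN spanned 5.89 times and PLN 8.80 times from lowest to highest, against 2.54 times for RYR1 and 2.23 times for CACNA1S.

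SLN exceeded PLN in 15 of 16 libraries, by a ratio of up to 21.9 in round treated 1. The exception was round treated 2, at 0.877. That library also had the lowest ratio of ATP2A1, the fast fibre pump, to ATP2A2, the slow fibre and heart pump, 0.644 against 2.3 to 14 in the other 15 libraries. Round treated 3, with the second largest sum over the slow fibre genes, had the second lowest of both ratios among the 16 libraries, 1.42 for SLN to PLN and 2.3 for the pumps. The part of fibre type in the SLN and PLN values was not tested.

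**Figure D2:**
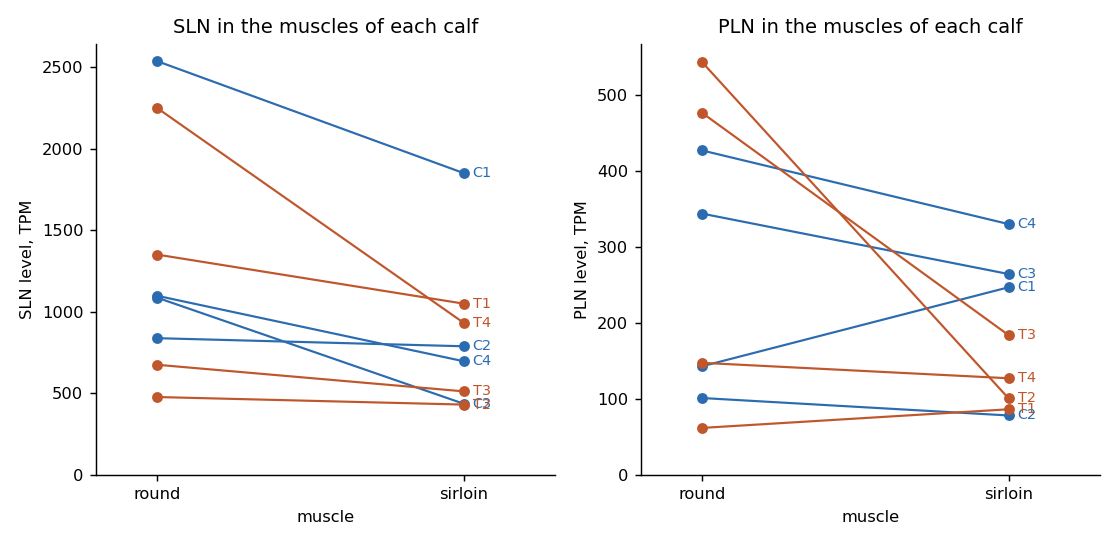
SLN (left) and PLN (right) in TPM in the round and sirloin libraries of the 8 calves, with a line joining the libraries of a calf (blue C1 to C4, control; orange T1 to T4, treated). All 8 SLN lines run down from round to sirloin, while the PLN lines cross, from 543 to 101 TPM in treated calf 2 and from 143 up to 247 TPM in control calf 1.

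PVALB (gene 538603) was all but undetected. Its counts were 0, 0, 6 and 0 in round control calves 1 to 4 and 0 in the 4 round treated calves. In sirloin muscle they were 10, 6, 10 and 0 for the controls and 0, 10, 0 and 1368 for the treated calves. A single library, sirloin treated 4, thus held 97.0% of the 1410 counts, and at 51.0 TPM it stood against at most 0.497 TPM in any other. Where the count was 0, as in 10 libraries, counting error allows up to 3 counts, or 0.041 to 0.067 CPM depending on the library. The same library carried the adipocyte genes: FABP4 was at 2825 TPM there against at most 11.9 TPM elsewhere, ADIPOQ at 678 against at most 1.13 TPM, PLIN1 at 160.0 against 1.79 TPM, CIDEC at 99.0 against 0.556 TPM and LEP at 14.9 against 0.051 TPM. In the other 15 libraries the 5 genes summed to 0.730 to 15.0 TPM, and the part of fat tissue in the PVALB value was not tested. The other soluble buffers listed, CALB1, CALB2 and OCM, averaged below 0.1 TPM.

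**Figure D3:**
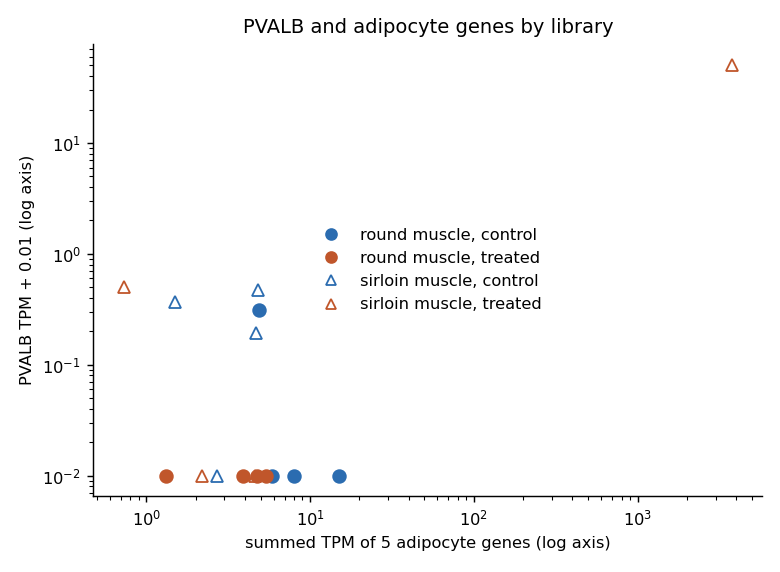
PVALB level, as TPM + 0.01 on a log axis, against the summed TPM of 5 adipocyte genes (ADIPOQ, PLIN1, CIDEC, LEP and FABP4) on a log axis, 1 point per library. Sirloin treated 4 stands alone at 51.0 TPM of PVALB and 3777 TPM of adipocyte genes, and the points along the bottom are the 10 libraries with no PVALB count.

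The first comparison asked whether the muscles of a calf differ in these genes, with the calf as a block, so that the diet of the dam drops out. SLN was the gene that separated the muscles most steadily: it was higher in round muscle in 8 of 8 calves, on average by 0.67 log2 CPM (SD 0.51, n = 8 calves), and by as little as 0.007 in control calf 2 and as much as 1.41 in treated calf 4. For comparison, 1.17% of all genes tested were higher in round muscle in all 8 calves. CACNA1S was lower in round muscle in 7 of 8 calves (mean -0.30, SD 0.33) and RYR1 in 6 of 8 (mean -0.29, SD 0.39), in each case including the 4 control calves. For counts short of all 8 calves the share over all genes was not computed. In tissue RNA such as this, fewer cells of a type and less RNA per cell cannot be told apart.

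By edgeR's quasi-likelihood test, 0 of the 10 genes passed an adjusted p of 0.05 between the muscles, where 0.533% of the 22877 genes tested did. The fitted log2 fold change of round over sirloin muscle was 0.67 (SE 0.16) for SLN, with an edgeR adjusted p of 0.103. DESeq2 called it, with an adjusted p of 0.00410, among 822 genes or 3.59%, and it was the sole member DESeq2 called, while limma-voom called 0 of the 10 and 0.455% of all genes (SLN adjusted p 0.108). The call for SLN therefore depended on the tool, while its direction was the same under all 17 alternatives run. At an unadjusted p under 0.05 edgeR passed 3 of the 10 genes, SLN, CACNA1S and PVALB, against 11.2% of all genes. CACNA1S had a log2 fold change of -0.30 (SE 0.13) and an edgeR adjusted p of 0.394, and RYR1 one of -0.29 (SE 0.15) with an adjusted p of 0.498. PVALB was lower in round muscle in 5 of 8 calves and higher in 0, and its fitted fold depends on how counts of 0 are treated. The edgeR log2 fold change was -5.24 with all calves and -3.12 without treated calf 4 (adjusted p = 0.419). With all calves its adjusted p was 0.193 by edgeR, and it was called by the bias-adjusted form of edgeR's test (adjusted p = 0.0277) and without control calf 3 (edgeR adjusted p = 0.0294), the calf with the sole round count. The other 6 genes had edgeR adjusted p-values of 0.543 (PLN, log2 fold change 0.54 (SE 0.29)) to 0.816 (JPH1, -0.14 (SE 0.14)).

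PLN had a difference of the same direction as SLN, on average 0.56 log2 CPM higher in round muscle, but it ranged from -0.75 in control calf 1 to 2.46 in treated calf 2 and was positive in 6 of 8 calves. In log2 CPM, STAC3 was also higher in round muscle in 6 of 8 calves. On that scale CASQ1 and JPH2 were higher in round in 5 of 8, and JPH1 and TRDN in 3 of 8. In TPM, STAC3 was lower in round muscle in treated calf 1 (251 against 268 in sirloin muscle). The same held in control calf 4 for CASQ1 (1309 against 1352), JPH1 (352 against 359) and TRDN (198 against 225). For STAC3, CASQ1, JPH1 and TRDN the count of calves thus depended on the scale. Across the 10 genes 5 log2 fold changes were positive and 5 negative, with a median of 0.01, against -0.004 over all genes tested. Of the markers of other cells, TAGLN, a smooth muscle gene, was the 1 gene of the 6 in its list to pass (log2 fold change 0.70, edgeR adjusted p = 0.0182). With each calf left out its edgeR adjusted p was 0.00878 to 0.0639, above 0.05 without control calf 2, 3 or 4 or treated calf 1 or 3, and the summed TPM of the list was 95.1 to 209 in round and 69.5 to 145 in sirloin libraries. Of the 6 smooth muscle genes 5 had positive log2 fold changes and 1 a negative one, with a median of 0.56, and 3 had an unadjusted p under 0.05 by edgeR. Of the 5 fibroblast genes 4 were positive and 1 negative, with a median of 0.70. Among those, 0 passed the edgeR test and 3 had an unadjusted p under 0.05, against 11.2% of all genes. Their summed TPM overlapped between the muscles. It was 237 to 396 TPM in round libraries other than round control 2 and 148 to 443 TPM in sirloin libraries other than sirloin treated 4. No gene of either list was at 0 throughout, and their part in the differences above was not tested.

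**Figure D4:**
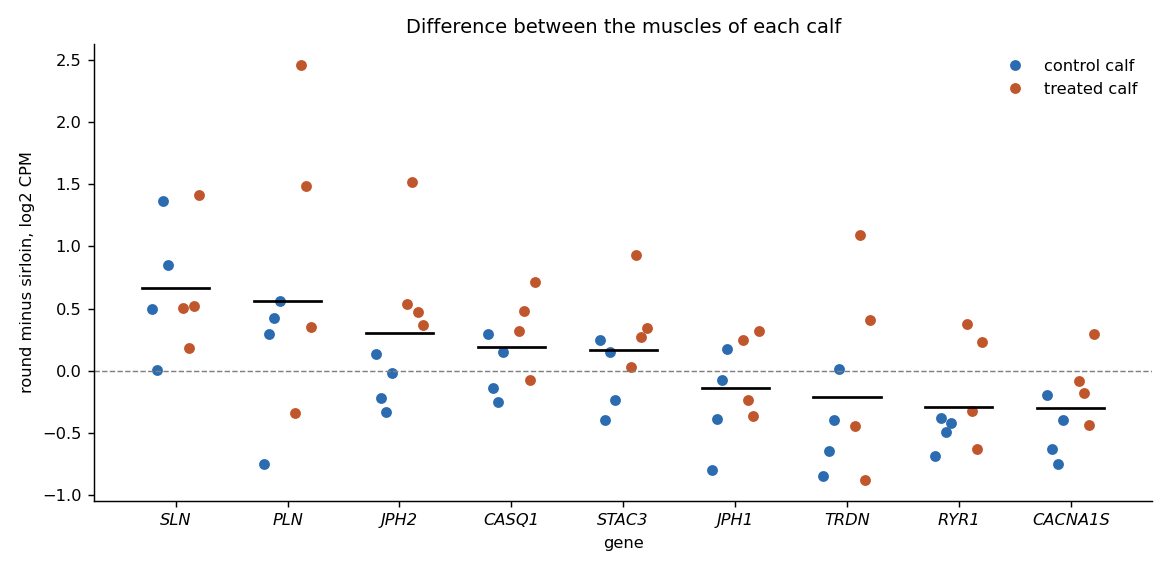
Difference between the round and the sirloin library of each calf, in log2 CPM, for the 9 genes with counts in every library (PVALB is left out). Blue points are control and orange points treated calves, bars are means over the 8 calves, and the dashed line marks no difference. All SLN points lie at or above the line, from 0.007 to 1.41, and the 4 treated JPH2 points lie above the 4 control points.

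In round muscle the 10 genes were split in direction with the dam's diet, and the split depended on single calves. Of the 10 log2 fold changes of treated over control calves, 5 were positive and 5 negative, and their median of 0.01 was close to the 0.02 of all genes. Without treated calf 2 there were 2 positive and 8 negative (median -0.08), and without control calf 1 there were 7 positive and 3 negative (median 0.16). RYR1 (-0.04 (SE 0.29)), STAC3 (0.06 (SE 0.31)) and PLN (0.10 (SE 0.63)) were closest to 0. The widest difference of a gene with counts in all libraries was that of JPH1, -0.48 (SE 0.41), followed by SLN at -0.32 (SE 0.52). By edgeR 0 of the 10 genes passed, against 0.0185% of the 21677 genes tested, and DESeq2 and limma-voom called 0 of them, against 0.212% and 0.00461% of all genes. At an unadjusted p under 0.05 edgeR passed 0 of the 10 and 4.41% of all genes. The lowest edgeR adjusted p among the genes other than PVALB was 0.892 (JPH1), and the diets overlapped for all 10 genes in TPM and in CPM, where 1.76% of all genes did not overlap in CPM. The standard errors, from 0.29 to 0.63 log2 units without PVALB, set the size of a difference that 4 calves a group could resolve. Without treated calf 2, whose round library was rich in slow fibre genes, the log2 fold change of TRDN was -0.22 in place of 0.27, and that of PLN -0.28 in place of 0.10. Without control calf 2, whose round library was rich in fibroblast genes, that of JPH1 was -0.79 in place of -0.48 (edgeR adjusted p = 0.788). The 8 slow fibre genes had positive log2 fold changes in round muscle with a median of 0.77. Of these, 0 passed and 3 had an unadjusted p under 0.05. Their summed TPM was 80489 in round treated 2 and 38753 in round treated 3. In round treated 1 and 4 it was 22752 and 17136, within the 15147 to 23361 of the round control libraries. The list is not summarized here without treated calf 2, and its part in the values of the calcium genes was not tested.

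In sirloin muscle 9 of the 10 log2 fold changes were negative, that is, lower in calves of overfed dams, with a median of -0.49 against 0.03 over all genes. Among the 9 genes with counts in every library, PLN was the furthest from 0 at -1.06 (SE 0.41), with a mean of 230.0 ± 107 TPM in control and 125 ± 43.1 TPM in treated calves (SD, n = 4 each). JPH1 followed at -0.65 (SE 0.38), then JPH2 at -0.61 (SE 0.32) and SLN at -0.57 (SE 0.46). RYR1 was at -0.51 (SE 0.24), CASQ1 at -0.48 (SE 0.26), STAC3 at -0.40 (SE 0.22), TRDN at -0.39 (SE 0.21) and CACNA1S at -0.26 (SE 0.24). None of these differences passed: edgeR called 0 of the 10 genes, against 0.00918% of 21776 genes, and DESeq2 and limma-voom called 0 as well, against 0.0597% and 0% of all genes. At an unadjusted p under 0.05 edgeR passed 2 of them, PLN and PVALB, against 3.91% of all genes. The edgeR adjusted p was 0.876 for PLN, and for all 10 genes it was 0.876 or more.

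The diets overlapped for every one of the 10 genes in sirloin muscle, where 1.68% of all genes did not overlap in CPM. All 4 treated libraries lay below the median of the controls for RYR1, PLN and STAC3 in TPM. The 8 genes that define skeletal muscle were negative too, with a median of -0.45. Of those, 0 passed the edgeR test and 3 had an unadjusted p under 0.05. Of the 50 other genes of the pathway tested, listed by role below, 36 were negative and 14 positive (median -0.23). All 9 fast fibre genes were negative (median -0.30), and of the 8 slow fibre genes 6 were negative and 2 positive (median -0.22). The 5 adipocyte genes had positive log2 fold changes with a median of 8.12, of which 0 passed and 5 had an unadjusted p under 0.05, and nearly all of their TPM was in sirloin treated 4. The part of these lists in the values of the calcium genes was not tested. Without that calf the median of the 10 genes was -0.54 with all 10 negative. PVALB was the exception to the direction, and without treated calf 4 its log2 fold change went from 5.37 to -0.82. The median was -0.31 without control calf 1, the calf with the highest sirloin level of RYR1, CASQ1 and SLN. On the deposited TPM, fitted as log2(TPM + 0.1), it was -0.28.

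**Figure D5:**
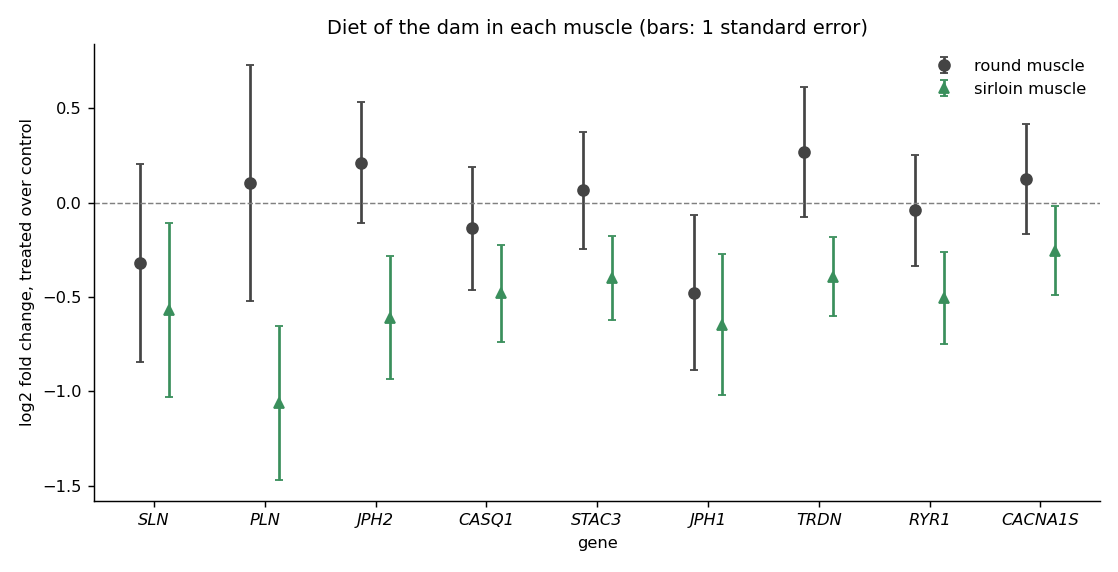
Log2 fold change of treated over control calves by edgeR, in round (black circles) and sirloin muscle (green triangles), for the 9 genes with counts in every library (PVALB is left out). Bars are 1 standard error and the dashed line marks no difference. The 9 sirloin values lie below 0, from -1.06 (PLN) to -0.26 (CACNA1S), and the round values lie on both sides of it.

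Whether the diet acted differently in the muscles was tested by the muscle by diet term within calves. JPH2 had the clearest contrast: its round library exceeded the sirloin one by 0.36 to 1.52 log2 CPM in the 4 treated calves, and the difference lay between -0.33 and 0.14 in the 4 control calves. The diets did not overlap in this difference, which was so for 2.46% of all genes. The fitted term was 0.83 (SE 0.27), with an edgeR adjusted p of 1 and a DESeq2 adjusted p of 0.612. By edgeR 0 of the 10 genes passed, against 0.00437% of 22877 genes, and 2 of them, JPH2 and PVALB, had an unadjusted p under 0.05, against 3.78%. DESeq2 and limma-voom called 0 of the 10, against 0.0393% and 0.00437% of all genes. The term was positive for 8 of the 10 genes, with a median of 0.40 against -0.03 over all genes. Without treated calf 2 the JPH2 term was 0.57. PLN had a term of 0.85 (SE 0.54), which went down to 0.36 without treated calf 2. The term for SLN was -0.03 (SE 0.34), and its difference between the muscles averaged 0.68 log2 CPM in control and 0.66 in treated calves. The 8 genes that define skeletal muscle had positive terms as well, with a median of 0.54.

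The pathway holds many more genes than these 10, and 55 of 56 others listed by role could be matched. By edgeR with all calves 0 of them passed in any comparison, of 53 tested in round muscle, 50 in sirloin muscle and 53 in each comparison of the muscles. In the same order, 3, 5, 10 and 9 of them had an unadjusted p under 0.05. These are 5.66%, 10%, 18.9% and 17.0% of those tested, against 4.41%, 3.91%, 11.2% and 3.78% of all genes. The shares over all genes, here and for DESeq2 below, take in every gene with at least 1 count in some library. They were not matched for level, so a gap between the shares is not a result about the pathway. DESeq2 called 4 between the muscles, or 7.55% against 3.59% of all genes, and 0 in the other comparisons. Those 4 were RYR3 at -1.11 (SE 0.30), HOMER1 at 0.63 (SE 0.17), ASPH at 0.39 (SE 0.11) and HRC at -0.46 (SE 0.15), as edgeR log2 fold changes of round over sirloin muscle. They were named after their values were seen, apart from HRC. HOMER1 encodes a scaffold protein, ASPH gives rise to junctin, a partner of triadin at the release channel, and HRC to a calcium-binding protein of the store.

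The highest other genes by role showed how the set was built in these calves. Among the channel subunits, CACNG1 averaged 186 ± 46.6 TPM in round and 191 ± 33.8 TPM in sirloin muscle (SD, n = 8 libraries), beside CACNB1 at 111 ± 35.7 and 120 ± 48.8 TPM. In the triad, BIN1, which shapes the transverse tubule, averaged 523 ± 115 and 490.4 ± 112 TPM. JSRP1, which binds the voltage sensor and calsequestrin, averaged 336 ± 51.4 TPM in round and 439 ± 115 TPM in sirloin muscle. The pump ATP2A1 had the highest level of all, 3299 ± 1023 and 3693 ± 513 TPM. ATP2A2 averaged 979 ± 1062 TPM in round muscle, where round treated 2 reached 3467 TPM, and 908 ± 120.1 TPM in sirloin muscle. Within calves its log2 fold change of round over sirloin muscle was -0.38 (SE 0.32, edgeR adjusted p = 0.781). Without treated calf 2 it was -0.69 (SE 0.19, edgeR adjusted p = 0.148). In control calves by themselves it was -0.97 (SE 0.14) and passed (edgeR adjusted p = 0.0368), and in treated calves by themselves it was 0.31 (SE 0.48). The regulator STRIT1, which favours pump activity, lay at 949 ± 512 and 894 ± 264 TPM, close to SLN, and MRLN, an inhibitor like SLN and PLN, at 181 ± 73.5 and 152 ± 78.6 TPM. The 5 pump regulators tested had positive log2 fold changes of round over sirloin muscle. For 1 of them, ERLN, the sign could only be positive, since it was at 0 TPM in every sirloin and every round treated library. By edgeR 0 of the 5 passed and 1, SLN, had an unadjusted p under 0.05.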

How the data were processed

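Total RNA from 16 muscle samples of 8 calves was sequenced in paired ends on an Illumina NovaSeq. The study's methods describe a stranded total RNA kit with rRNA and globin removal, whereas the labels describe poly(A) selection. The methods name HISAT2, Bowtie2 and StringTie, and the submitters' processing notes name STAR, featureCounts and the genome build ARS-UCD1.2, so which counter made the tables is uncertain. The authors deposited whole-number read counts per gene without normalization, and normalized values used here as TPM, since the deposited TPM columns sum to 999756 to 1000000 in each library. Tables of the authors' own diet comparisons, with fold changes and p-values, were not used.

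Gene numbers were named from NCBI RefSeq (ARS-UCD2.0), which matched 30762 of 34109 (90.2%). No coordinates are given because the builds differ. The 10 genes and all lists were chosen with earlier results of these data known. All 10 members are named, with listed genes that passed the test, up to 4 per list with the highest mean TPM, and for the 3 members of widest range the 3 genes closest in root mean square difference of centred log2 CPM.

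Counts were tested with edgeR 4.0.16 in R 4.3.3 (TMM factors, glmQLFit, glmQLFTest, two-sided) on the genes that reached 1 count in some library of the comparison, adjusted over all of these by the Benjamini-Hochberg method at 0.05. Diets were compared within each muscle without covariates, in 8 libraries each. Muscles, and the muscle by diet term, were compared in 16 libraries with the calf as a block. The SE is the log2 fold change divided by the square root of F. The labels give the round and sirloin libraries of a diet the same replicate numbers without stating that a number is a calf. Same-numbered libraries were taken as 1 calf, since the study sampled both muscles of each calf. After group means were removed, they also correlated at 0.311 to 0.765 over genes, each of the 8 pairs above 0.1. The 56 round and sirloin pairs with different numbers or diets correlated at -0.524 to 0.456. These ranges overlap, so the correlation by itself does not settle the pairing. Each library did correlate most with the library of its own diet and number in the other muscle. The sample descriptions carry a further number for each library, which gives the same pairs. Numbers did not pair calves across diets (-0.044 to 0.290 in round, -0.280 to 0.274 in sirloin muscle). Log2 CPM used a prior count of 2. All of these fits were tested on simulated data. On those the paired fit without a further filter gave more false calls than intended, and the fit after filterByExpr did not. Alternatives were RLE factors, filterByExpr, DESeq2 1.42.0, limma-voom (limma 3.58.1), limma on log2(TPM + 0.1) and log2(TPM + 1), blocks added or removed, each diet by itself, both muscles in a single fit, and each calf left out; the bias-adjusted quasi-likelihood fit was added after seeing the data. Depth was 44473011 to 72446933 counts a library, and limits for a count of 0 cover counting error only.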

Additional observations from a re-analysis of the deposited data

Results flagged for a closer look

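In each group of 4 libraries the highest or lowest TPM was set apart when its gap to the next library, divided by the range of the group, exceeded Dixon's critical value for 4 values. Chance alone does so in about 1 of 20 groups, and 4 of the 39 groups tested were set apart. SLN in round control 1 was at 2536 TPM, with the other 3 libraries of the group at 838 to 1097 TPM. The same library was set apart for STAC3, at 434 TPM against 220.5 to 254 TPM. PVALB in round control 3 was at 0.303 TPM, from 6 counts, against 0 in the other 3, a group in which any count at all would be set apart. PVALB in sirloin treated 4 was at 51.0 TPM against at most 0.497 TPM in the other 3. None of the 10 genes passed the edgeR test for a difference between the muscles in the effect of the diet.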

How the results depend on the processing

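With 4 calves a group, small differences could not be resolved, and a p above the threshold does not show that levels were alike. PVALB rests on 1 library. Under other tools the number of genes called by diet in round muscle (4) was 46 by DESeq2, 1 by limma-voom, 1 on log2(TPM + 0.1), 0 on log2(TPM + 1) and 0 to 3 with each calf left out. In sirloin muscle (2) it was 13, 0, 1, 0 and 0 to 1 in the same order. Between the muscles, where on simulated data the test gave more false calls than intended, the number (122) was 125 after filterByExpr, which gave no such excess, and TAGLN passed there too (edgeR adjusted p = 0.0189). Otherwise it was 822 by DESeq2, 189 by the bias-adjusted fit, 75 on log2(TPM + 0.1), 4 in treated calves by themselves and 44 to 368 with each calf left out, where 368 was without treated calf 4, 44 without treated calf 1, 51 without control calf 3, 54 without control calf 4 and 79 without control calf 2. For the muscle by diet term (1) it was 9 by DESeq2, 0 by the bias-adjusted fit and 0 to 2 with each calf left out. The number of the 10 genes called was 0, except 1 between the muscles by DESeq2 (SLN), by the bias-adjusted fit (PVALB) and without control calf 3 (PVALB), a range of 0 to 1 with each calf left out.

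The replicate numbers do not pair calves across diets. A replicate block over those numbers gave 2 genes called in round and 0 in sirloin muscle, with 0 of the 10 genes in either. Without the block on the calf, the muscles differed in 14 genes and the muscle by diet term in 0, again with 0 of the 10.

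Some uncalled log2 fold changes changed sign, and the cause was not tested. For the diet in round muscle RYR1 was 0.0359 on log2(TPM + 0.1) and 0.0358 on log2(TPM + 1), and PLN was -0.0545 by limma-voom and -0.13 with the replicate block. With each calf left out, values in round muscle were -0.254 to 0.0619 for RYR1, -0.0457 to 0.363 for CACNA1S, -0.33 to 0.13 for CASQ1, -0.88 to 0.19 for SLN, -0.28 to 0.51 for PLN, -0.11 to 0.40 for STAC3 and -0.22 to 0.43 for TRDN. In sirloin muscle they were -0.806 to 0.0652 for SLN and -0.82 to 5.82 for PVALB. Between the muscles JPH2 was -0.11 and STAC3 -0.0621 in control calves by themselves, and JPH1 was 0.0053 and TRDN 0.0543 in treated calves by themselves. The muscle by diet term of SLN was 0.22 without the calf block and -0.29 to 0.22 with each calf left out. The other values of the 10 genes kept their direction under each alternative that could be fitted, and the SLN and PVALB calls above were the only ones.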

Other observations

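PVALB, PLN and SLN had the widest ranges of log2 CPM over the 16 libraries. The genes closest to each in pattern were sought among 11394 genes, by the root mean square difference of log2 CPM over the 16 libraries after each gene was centred on its own mean. For SLN these were DHDH (0.44), MALSU1 (0.47) and LDHA (0.49), the last a lactate dehydrogenase gene with 860.4 to 3611 TPM. For PLN they were UBE2QL1 (0.50), SLC16A1 (0.56), a monocarboxylate transporter gene, and KLHL24 (0.58). For PVALB they were MGST1 (1.15), BPIFA2A (1.25) and QPRT (1.27), all highest in sirloin treated 4, at 133, 102 and 41.2 TPM, against at most 15.9, 0 and 0.755 TPM in the other 15 libraries. These values describe likeness in these libraries and carry no test.

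Of the other genes of the pathway, the 3 with an unadjusted p under 0.05 for the diet in round muscle were S100A1, ATP2A2 and HOMER1, and none of them passed the edgeR test after adjustment. S100A1, a calcium-binding protein gene, had a log2 fold change of treated over control calves of 1.72 (SE 0.56, edgeR adjusted p = 0.864), and of 1.05 without treated calf 2. ATP2A2, the slow fibre pump, had a log2 fold change of treated over control calves in round muscle of 1.51 (SE 0.52, edgeR adjusted p = 0.864), and round treated 2 held the highest level, 3467 TPM. Without treated calf 2 that fold change was 0.72 (SE 0.37). HOMER1 had negative log2 fold changes with the diet in both muscles, -0.96 (SE 0.28) in round and -0.81 (SE 0.31) in sirloin muscle, with edgeR adjusted p-values of 0.864 and 0.876. S100A1 and HOMER1 were named after their values were seen.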
